A study of Mus musculus with 6 samples.

Results

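The 34 genes described here encode the piRNA pathway and the nuage, the perinuclear granules of germ cells in which much of that pathway is assembled. They were chosen by name, and 33 of the 34 were matched by Ensembl identifier to a row of a table of 57170 gene identifiers measured in whole mouse testes at postnatal day 5. The table holds 2 wild-type libraries, called WT-1 and WT-2 here, and 4 libraries labelled sKO, called sKO-1 to sKO-4, from testes in which Mdm2, the ubiquitin ligase that restrains p53, was conditionally deleted in germ cells that had not entered meiosis. Of the deletion's driver, the strain and any pooling of tissue nothing is known from the sources used here. Nothing in the labels ties a library to an animal of its own, and p-values measure only the spread between these libraries. By the rule that chose the genes, 5 members are also made by somatic cells (Mov10, Prmt5, Wdr77, Snd1 and Tdrd3), and the other 29 are counted as germ cell only.

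piRNAs are small RNAs of the germline that guide PIWI proteins to transposon transcripts, which are then cut in the cytoplasm or silenced by DNA methylation in the nucleus. Long precursors are unwound and cut at the surface of mitochondria, loaded into PIWI proteins, trimmed and methylated at their 3′ ends. Arginines of PIWI proteins and of the helicase DDX4 are methylated by PRMT5 with its partner WDR77, and Tudor-domain proteins bind these methylated arginines and build the granules. In the fetal and neonatal testis the pathway acts in prospermatogonia, and at postnatal day 5 the cords hold spermatogonia among Sertoli cells. In RNA from whole testis, fewer germ cells and less RNA per germ cell cannot be told apart.

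The libraries held 17.99 to 18.39 M (mega) expected counts, and 17707 genes passed the filter on low counts and were tested. Levels (CPM) are counts scaled by library totals multiplied by normalisation factors (TMM), not by the totals alone. These factors ran from 0.958 in sKO-4 to 1.055 in WT-1, and whether groups overlap was read on this scale. Mdm2 was at 67.2 and 75.9 CPM in WT, against 37.6 to 47.3 CPM in sKO (log2 fold change −0.74, SE 0.11, edgeR adjusted p = 0.0241, and 0.0489 to 0.171 when each library in turn was left out). A principal component analysis put 38.1% of the variance on an axis along which the libraries split into subset 1, with sKO-1, sKO-2 and WT-1, and subset 2, with sKO-3, sKO-4 and WT-2. The labels name no batch, and the split was read from the data. The fit with it as a term is given where it changes a call of a member or of a listed gene. Fits within each subset are given mostly as totals, though they also change calls of members. Since the split came from these same libraries, p-values for genotype in those fits may be too small.

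Promoters of 25 members were found in the RefSeq table, which is on GRCm38.p6, another build than that named for the counts. Windows ran from 250 bases before to 50 after each listed start and were searched on both strands. CACGTG, the palindromic E-box that many basic helix-loop-helix factors recognise, was in 9 of 25 members (36.0%) and in 8.09% of the 27025 genes with a promoter in the table. Among the 16 of these members that were lower in sKO it was in 7, namely Piwil1, Mael, Tdrd1, Stk31, Mov10l1, Fkbp6 and Ddx4. The other members with it were Pld6 and Wdr77. GGCGGGA, which resembles E2F sites, was in 6 of 25 members (24.0%) and in 12.75% of all genes. It was in 3 of the 16 lower members (18.75%) and in 3 of the 5 members also made by somatic cells. AACNGNC, which resembles sites of MYB factors, was in 14 members (56.0%) and in 35.96% of all genes. No match to 1 of these motifs overlapped a match to another in the members. Windows of members held a median of 25 CpG pairs, against 8 in all genes, so the windows also differ in base composition.

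The 250 bases before the outermost start are printed for 4 members that were lower in sKO and hold the E-box. These are a PIWI protein, a helicase and a pair of processing and loading factors. Printed beside them is Snd1, a somatic member near its WT level that lacks the E-box. The genes were picked for display, and a link between motif and change was not tested. Only 7 of the 16 lower members with a promoter hold the E-box, and Wdr77, which did not pass the test, also holds it. Capitals mark CACGTG and, on either strand, GGCGGGA.
Piwil1, chr5:128735996-128736245, plus strand: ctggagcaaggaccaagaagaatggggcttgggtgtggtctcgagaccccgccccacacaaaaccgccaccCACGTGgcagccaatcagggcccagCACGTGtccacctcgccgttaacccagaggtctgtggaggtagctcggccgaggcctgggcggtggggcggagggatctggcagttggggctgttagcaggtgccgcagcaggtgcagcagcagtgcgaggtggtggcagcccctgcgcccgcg
Ddx4, chr13:112652311-112652560, minus strand: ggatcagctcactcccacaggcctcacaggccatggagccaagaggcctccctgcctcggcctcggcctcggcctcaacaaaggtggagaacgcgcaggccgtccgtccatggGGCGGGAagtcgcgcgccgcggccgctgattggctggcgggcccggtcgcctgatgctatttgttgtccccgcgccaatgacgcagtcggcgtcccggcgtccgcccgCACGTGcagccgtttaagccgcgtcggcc
Mael, chr1:166238745-166238994, minus strand: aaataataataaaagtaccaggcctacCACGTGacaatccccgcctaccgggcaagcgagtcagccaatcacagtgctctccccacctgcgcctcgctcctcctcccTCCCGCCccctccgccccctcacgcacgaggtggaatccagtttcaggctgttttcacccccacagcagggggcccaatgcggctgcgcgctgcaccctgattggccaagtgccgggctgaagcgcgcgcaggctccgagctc
Fkbp6, chr5:135350045-135350294, minus strand: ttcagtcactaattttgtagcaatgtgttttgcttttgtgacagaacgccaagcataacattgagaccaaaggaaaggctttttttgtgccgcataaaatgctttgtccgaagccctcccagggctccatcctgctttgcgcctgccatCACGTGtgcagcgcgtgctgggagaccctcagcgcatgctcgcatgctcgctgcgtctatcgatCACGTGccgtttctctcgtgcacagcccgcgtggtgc
Snd1, chr6:28480098-28480347, plus strand: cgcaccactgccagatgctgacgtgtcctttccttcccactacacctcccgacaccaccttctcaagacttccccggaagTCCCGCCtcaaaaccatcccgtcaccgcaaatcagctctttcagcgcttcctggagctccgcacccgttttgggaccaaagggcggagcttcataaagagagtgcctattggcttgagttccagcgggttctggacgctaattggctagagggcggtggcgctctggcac
The E-box begins 179 and 154 bases before the start in Piwil1, 101 and 37 bases before it in Fkbp6, 29 in Ddx4 and 223 in Mael. The E2F-like letters lie 137 bases before the start in Ddx4, 143 in Mael and 170 in Snd1. A match is a run of letters, and binding was not measured.

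Transcripts of most of the pathway were lower in sKO testes. Of the 31 members tested, 21 were lower and 0 were higher (edgeR quasi-likelihood test, adjusted p under 0.05 over all genes). Across all genes tested, 2.30% were lower and 0.124% were higher. At an unadjusted p under 0.05, 25 members were lower and 0 higher. The share of all genes at that unadjusted threshold was not computed, for this fit or for those below. No excess of members over all genes can therefore be read from counts at that threshold. DESeq2 called 23 members lower and 0 higher, where it called 3.16% of all genes lower and 0.392% higher. RLE size factors gave 21 lower members (2.26% of all genes), a filter of at least 1 CPM in 2 libraries 21 (2.49%), limma-voom 21 (2.52%) and no count filter 23 (1.66%). All 21 belong to the 26 tested members counted as germ cell only, whose median log2 fold change was −2.17, against 0.03 over all genes tested. The 5 members also made by somatic cells had a median of −0.15, and 0 of them passed. The 21 lower members were left at 11.9% to 36.8% of their WT mean, with a median of 20.9%. Among them Piwil1, at the 11.9% end, and Spocd1 passed the filter on low counts through WT alone. A large difference was thus built into the selection of both, and their calls and shares carry that limit wherever they are counted. The 4 sKO libraries all lay below both WT libraries at 25 members, which was so for 13.3% of all genes tested, and all lay above them at 1 member, Tdrd3 (9.79% of all genes).

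**Figure D1:**
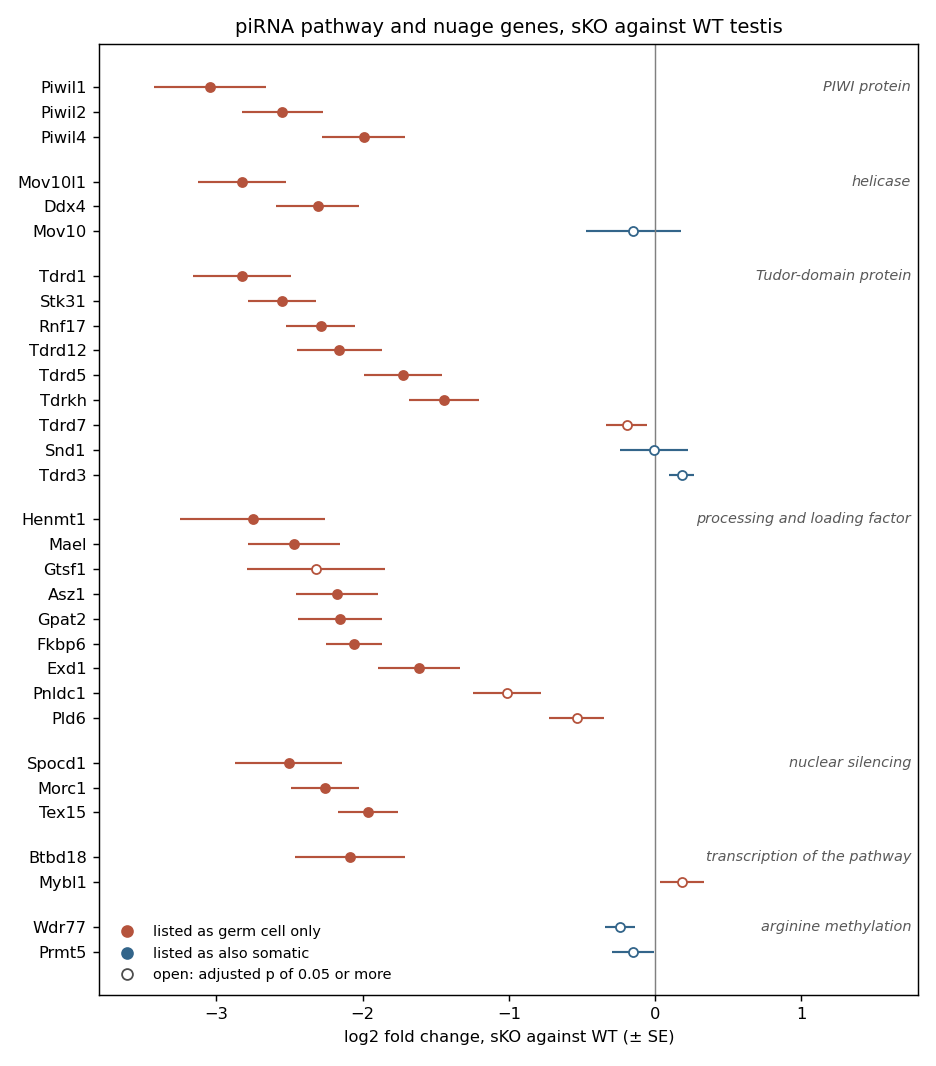
Log2 fold change of sKO against WT for the 31 tested members, grouped by role, with bars for the SE; filled points have an edgeR adjusted p under 0.05. The 21 filled points lie between −3.05 and −1.44, while all 5 members also made by somatic cells, with Mybl1 and Tdrd7, lie within 0.24 of 0. The point at −3.05 is Piwil1, which passed the filter on low counts through WT alone.

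The calls depended on WT-1 more than on WT-2. WT-1 exceeded WT-2 at all 26 tested germ-cell-only members, by 1.02 to 2.36 times, as it did at all 18 other germ cell genes examined and at 50.6% of all genes tested. Without WT-1, 0 members and 0.00543% of all genes were lower (adjusted p 0.111 to 0.378 for the 21 members), 23 were lower at an unadjusted p under 0.05, and the median of the germ-cell-only members was −1.995. The number lower was 16 without WT-2 (1.04% of all genes). With sKO-1 left out it was 18 (1.01%), with sKO-2 left out 13 (0.588%), with sKO-3 left out 14 (0.855%) and with sKO-4 left out 16 (1.28%). In each of those 5 fits the same 13 members passed: Piwil1, Piwil2, Mael, Tdrd1, Stk31, Rnf17, Mov10l1, Asz1, Fkbp6, Morc1, Ddx4, Gpat2 and Tex15. With the library subset as a term 25 members were lower and 0 higher (8.65% of all genes were lower and 4.97% higher). Within subset 1 alone 23 members were lower (5.15% of all genes) and within subset 2 alone 20 were (3.22%), where the single WT library is taken to vary as sKO does. On the 4 libraries numbered 1 and 2, 19 members were lower with the replicate number as a block (1.54%) and 15 without it (1.07%).

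Transcripts of all 3 PIWI proteins were lower in sKO (2.30% of all genes tested were lower). Piwil2, which encodes MILI, the PIWI protein that slices transposon transcripts and loads primary piRNAs in early germ cells, was at 90.7 CPM in WT-1 and 57.6 in WT-2, and at 16.3, 10.9, 8.26 and 15.2 in sKO-1 to sKO-4. The groups did not overlap, and even sKO-1, the highest sKO library, lay far below WT-2. On the log2 scale the change was −2.55 (SE 0.28, adjusted p = 0.0110). Piwil4, which encodes MIWI2, the nuclear PIWI protein that directs methylation to transposons, was far less abundant, at 4.73 and 4.51 CPM in WT and 0.910 to 1.502 in sKO (−1.99, SE 0.28, adjusted p = 0.0193). Unlike Piwil2, it was almost equal in the 2 WT libraries. Piwil1, which encodes MIWI, the PIWI protein of meiotic and later germ cells, had 74 and 43 counts in WT and 5 to 9 counts in sKO. It had the steepest fall among the members (−3.05, SE 0.38, adjusted p = 0.0138), but passed the filter on low counts through WT alone, so a large difference was built into its selection and its size is uncertain. Without sKO-1 (adjusted p = 0.0528), sKO-2 (0.0618), sKO-3 (0.0526) or WT-2 (0.0676) the call of Piwil4 was lost.

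Transcripts of the germ cell helicases were lower in sKO and those of their somatic relative did not pass the test. Ddx4, the vasa helicase that defines the nuage, was at 119.7 and 79.1 CPM in WT, against 23.5, 14.6, 14.6 and 27.8 CPM in sKO-1 to sKO-4. It kept 20.2% of its WT mean (−2.31, SE 0.29, adjusted p = 0.0136). Mov10l1, the RNA helicase that feeds precursors to the nuclease, was at 55.3 and 37.1 CPM in WT and 7.62, 4.82, 4.45 and 9.19 CPM in sKO (−2.82, SE 0.30, adjusted p = 0.0110). In both genes sKO-1 and sKO-4 were the higher sKO libraries, and both groups stayed apart. Mov10, the paralog made in most cells, averaged 129.0 ± 41.9 CPM in WT (SD, n = 2), against 116.3 ± 40.9 CPM in sKO (SD, n = 4) (−0.15, SE 0.32, adjusted p = 0.918).

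Among genes of Tudor-domain proteins, which read methylated arginines, 6 of 9 tested were lower in sKO (2.30% of all genes). Tdrd1, a scaffold that binds MILI in the cement between mitochondria, was at 48.3 and 28.7 CPM in WT and 7.15, 4.39, 3.18 and 6.99 CPM in sKO (−2.83, SE 0.34, adjusted p = 0.0120). Stk31, a Tudor protein with a kinase-like domain, was at 43.6 and 30.2 CPM in WT and 4.68 to 7.97 CPM in sKO (−2.55, SE 0.23, adjusted p = 0.00929). Both dropped more than 5-fold, with no overlap between the groups. Rnf17, which also carries a RING finger (−2.29), and Tdrd12, which joins a helicase and Tudor domains and takes part in secondary piRNA production (−2.16), had adjusted p of 0.0110 and 0.0161. Tdrd5, needed for the granules of later germ cells, and Tdrkh, the mitochondrial Tudor protein that holds PIWI proteins for trimming, had the smallest falls of the called members apart from Exd1, with log2 fold changes of −1.73 (SE 0.27) and −1.44 (SE 0.24). Their calls were lost without sKO-2 (adjusted p 0.0678 and 0.0822), sKO-3 (0.0505 and 0.0800) or sKO-4 (0.0560 and 0.0664), that of Tdrkh also without WT-2 (0.0512), and that of Tdrd12 without sKO-2 (0.0586).

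Tdrd7, a granule protein known also from the lens, stood apart from the other Tudor genes counted as germ cell only. It was at 29.4 and 28.9 CPM in WT, against 30.4, 23.2, 23.3 and 24.8 CPM in sKO-1 to sKO-4. The groups overlapped, since sKO-1 was the highest library of all, and the log2 fold change was −0.20 (SE 0.14, adjusted p = 0.667). Tdrd6, a scaffold of the chromatoid body of spermatids, was barely detected, with 8 and 9 counts in WT and 2 to 8 counts in sKO, and was not tested.

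**Figure D2:**
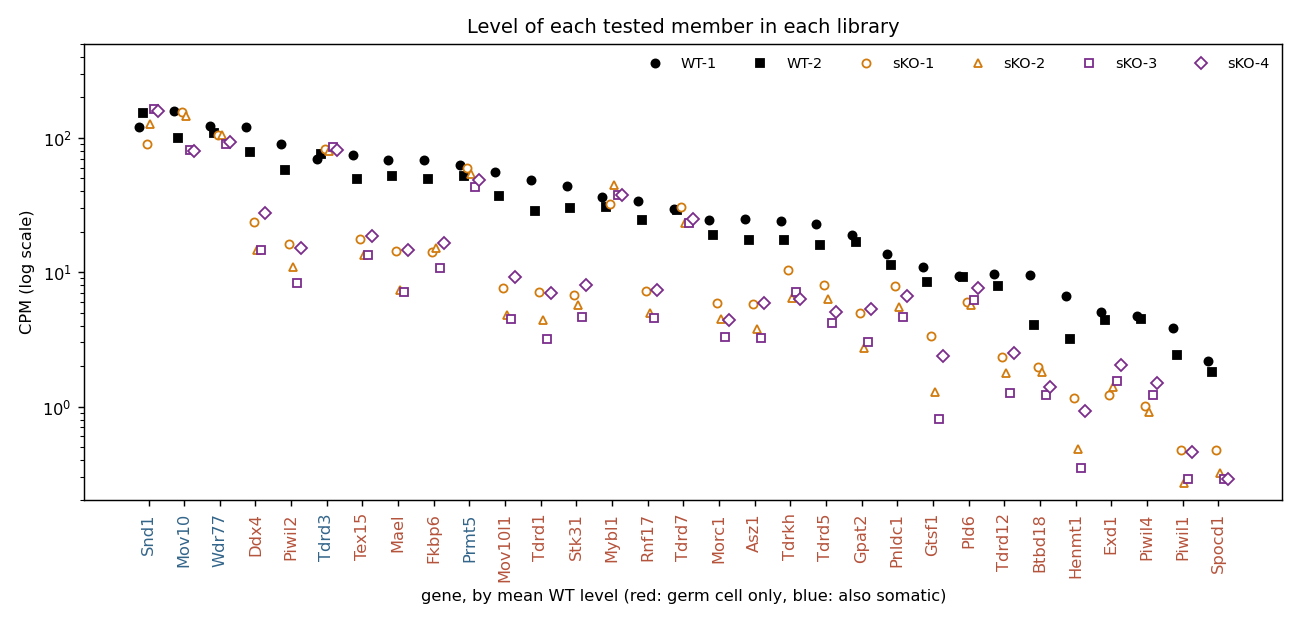
CPM on a log axis of the 31 tested members in each library, ordered by mean WT level; black symbols are WT, open symbols sKO, with squares and diamonds for subset 2 among the sKO libraries. At most genes counted as germ cell only the 4 sKO libraries form a separate group below WT, and at Mybl1 and Tdrd7 the groups overlap.

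Transcripts of factors that cut, load and finish piRNAs were lower in 6 of 9 tested cases (2.30% of all genes). Those of the nuclease and the trimmer did not pass. Mael, a nuage protein needed for transposon silencing, was at 68.6 and 51.9 CPM in WT and 14.5, 7.34, 7.16 and 14.6 CPM in sKO (−2.47, SE 0.32, adjusted p = 0.0139). Fkbp6, a co-chaperone in the loading of PIWI proteins, was at 68.1 and 49.5 CPM in WT and 14.0, 15.2, 10.7 and 16.5 CPM in sKO (−2.06, SE 0.19, adjusted p = 0.00929). Neither gene overlapped between the groups, and Fkbp6 varied less among the sKO libraries than Mael. The mitochondrial proteins Asz1 (−2.17) and Gpat2 (−2.16), which take part in primary piRNA production, had adjusted p of 0.0143 and 0.0158. Henmt1, the methyltransferase that protects piRNA 3′ ends, was at 6.70 and 3.21 CPM in WT and 0.347 to 1.16 CPM in sKO (−2.75, SE 0.49, adjusted p = 0.0367). Exd1, an RNA-binding partner of Tdrd12, was at 5.09 and 4.39 CPM in WT and 1.22 to 2.02 CPM in sKO (−1.61, SE 0.28, adjusted p = 0.0328). Both lost their calls without sKO-1 (adjusted p 0.0548 and 0.0741), sKO-2 (0.0972 and 0.0973), sKO-3 (0.0767 and 0.0881) or WT-2 (0.0512 and 0.0976), and that of Henmt1 also without sKO-4 (0.0747).

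Pld6, the mitochondrial nuclease that opens precursors, was at 9.45 and 9.18 CPM in WT, against 6.03, 5.73, 6.24 and 7.68 CPM in sKO-1 to sKO-4. All 4 sKO values lay under both WT values, at 68.9% of the WT mean, and the log2 fold change was −0.54 (SE 0.19, adjusted p = 0.256, or 0.0467 with the library subset as a term). Pnldc1, the exonuclease that trims piRNA 3′ ends, was at 13.7 and 11.3 CPM in WT and 7.89, 5.52, 4.68 and 6.70 CPM in sKO (−1.01, SE 0.23). Its adjusted p was 0.0819 in edgeR, 0.00659 in DESeq2, 0.0454 with no count filter and 0.00903 with the subset term. Gtsf1, a small zinc finger protein that assists PIWI slicing, was at 11.01 and 8.51 CPM in WT and 3.33, 1.29, 0.809 and 2.37 CPM in sKO. Its groups did not overlap, its log2 fold change (−2.32, SE 0.47) was near that of Ddx4, and its adjusted p was 0.0544 in edgeR, 1.15e-04 in DESeq2, 0.0264 in limma-voom and 0.00525 with the subset term. Its wide spread among the sKO libraries, more than 4-fold from lowest to highest, goes with the large SE. Gtsf1l, a relative of Gtsf1, had 3 counts in WT-1 and 0 in the other 5 libraries and was not tested.

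All 3 genes of nuclear silencing were lower in sKO (2.30% of all genes). Tex15, which takes part in piRNA-directed transposon methylation, was at 74.1 and 49.1 CPM in WT and 17.8, 13.3, 13.5 and 18.6 CPM in sKO (−1.96, SE 0.20, adjusted p = 0.0110). Morc1, an ATPase of germline transposon repression, was at 24.5 and 18.8 CPM in WT and 3.29 to 5.88 CPM in sKO (−2.26, SE 0.23, adjusted p = 0.0110). Spocd1, a nuclear partner of MIWI2, had 42 and 32 counts in WT and 5 to 9 in sKO (−2.51, SE 0.37, adjusted p = 0.0205), and like Piwil1 passed the filter on low counts through WT alone. Its call was lost without WT-2 (adjusted p = 0.0654), sKO-2 (0.0664), sKO-3 (0.0609) or sKO-4 (0.0503).

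The pair of transcription regulators of the pathway differed. Btbd18, a nuclear protein that promotes transcription of piRNA precursors in meiosis, was at 9.55 CPM in WT-1 but 4.06 in WT-2, the widest gap between the WT libraries among the tested germ-cell-only members, and at 1.96, 1.82, 1.21 and 1.39 CPM in sKO (−2.09, SE 0.38, adjusted p = 0.0362). Its call was lost in limma-voom (0.0555) and without any 1 sKO library (0.0735 to 0.0961). Mybl1, which encodes A-MYB, the activator of piRNA precursors and of many pathway genes in pachytene cells, was at 36.5 and 30.6 CPM in WT and 32.5, 44.9, 37.5 and 37.3 CPM in sKO. The groups overlapped, and the log2 fold change was 0.18 (SE 0.15, adjusted p = 0.716). It is counted as germ cell only by the rule, and its level did not follow the other germ cell transcripts in these libraries.

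None of the 5 members also made by somatic cells passed the test. Wdr77 was at 123.0 and 108.8 CPM in WT and 104.8, 105.1, 89.8 and 93.0 CPM in sKO, and its partner Prmt5, the enzyme of symmetric arginine dimethylation, at 62.5 and 51.9 CPM in WT and 59.9, 54.0, 43.2 and 48.8 in sKO. The sKO values of Wdr77 all lay under both WT values (−0.24, SE 0.10, adjusted p = 0.381, or 0.0147 with the subset term), and those of Prmt5 overlapped WT (−0.15, SE 0.15, adjusted p = 0.770). Tdrd3, which binds methylated arginines of histones and RNA polymerase in many cells, was at 69.2 and 76.5 CPM in WT and 79.7 to 86.0 in sKO (0.18, SE 0.09, adjusted p = 0.443). Snd1, a Tudor nuclease-like protein of most cells, was at 119.6 and 152.4 CPM in WT and 90.6, 127.5, 165.3 and 157.4 in sKO (−0.01, SE 0.23, adjusted p = 0.997).

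Mov10 and Snd1 lay at different levels in the library subsets, which were drawn from these same data, and neither passed the test for genotype. In subset 1 Mov10 was at 158.6 CPM in WT-1 and at 156.7 and 146.4 CPM in the sKO libraries, and in subset 2 at 99.4 CPM in WT-2 and at 81.5 and 80.5 CPM in the sKO libraries. The subset difference of Mov10, subset 2 minus subset 1 with genotype as a term, was −0.83 (SE 0.06, adjusted p = 9.14e-05), and that of Snd1 was 0.49 (SE 0.11, adjusted p = 0.00930). Prmt5 (−0.29, SE 0.07) and Wdr77 (−0.19, SE 0.05) were also lower in subset 2, with adjusted p of 0.0115 and 0.0132. Among the germ-cell-only members only Tdrd5 (−0.58, adjusted p = 0.0123) and Btbd18 (−0.84, adjusted p = 0.0217) passed for the subset. Of the 31 members tested, 5 were lower and 1 was higher in subset 2, where 17.5% of all genes tested were lower and 16.4% higher. The subsets were read from the levels in these same libraries, so differences between them were built in. The p-values for the subset are thus given as a description only. Within subset 2 Mov10 was 0.30 lower in sKO on the log2 scale (adjusted p = 0.0454), and within subset 1 the value was −0.09 (adjusted p = 0.602). What separates the subsets was not tested.

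**Figure D3:**
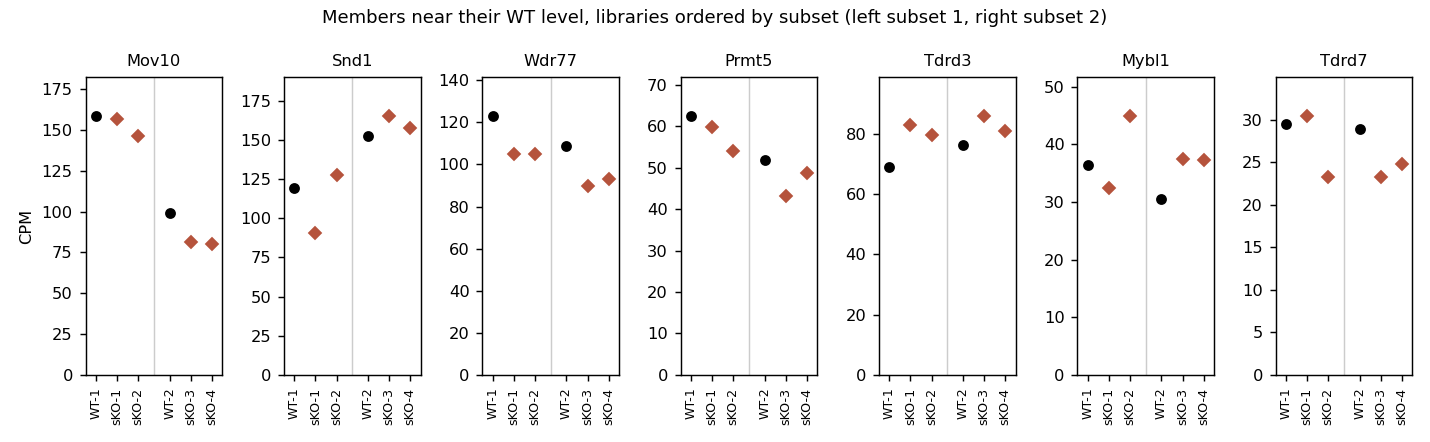
CPM of the 5 members also made by somatic cells and of Mybl1 and Tdrd7, with libraries ordered by subset, circles for WT and diamonds for sKO; each axis starts at 0. Mov10 lies at 146.4 to 158.6 CPM in the libraries of subset 1 and at 80.5 to 99.4 CPM in subset 2.

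Levels per length show how the make-up of the pathway differed. Per kilobase of annotated exon (RPKM), Mael (34.8), Fkbp6 (33.6) and Ddx4 (32.98) were the most abundant members in WT and differed from each other by less than the spread between the WT libraries, followed by the somatic members Wdr77 (23.9) and Mov10 (23.0) and by Prmt5 (14.5), Piwil2 (14.0) and Snd1 (13.9). Exd1 (0.785), Piwil1 (0.719) and Spocd1 (0.618) were the lowest of those tested, just under Piwil4 (0.857). Abundant Mael kept 18.04% of its WT mean in sKO and Tdrkh, at 3.35 RPKM, kept 36.8%. At the low end Piwil4 kept 25.1% and Exd1 32.6%, while the shares of Piwil1 and Spocd1 are bound to be low, since they passed the filter through WT alone. Whether the share left depends on the level was not tested. In WT, Tdrd7 made up 3.44 ± 0.736% (SD, n = 2) of the summed RPKM of the germ-cell-only members and in sKO 11.02 ± 1.49% (SD, n = 4), while the share of Mov10l1 was 5.00 ± 0.264% and 2.58 ± 0.448%. Each share depends on all the others, so these are given as a description.

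**Figure D4:**
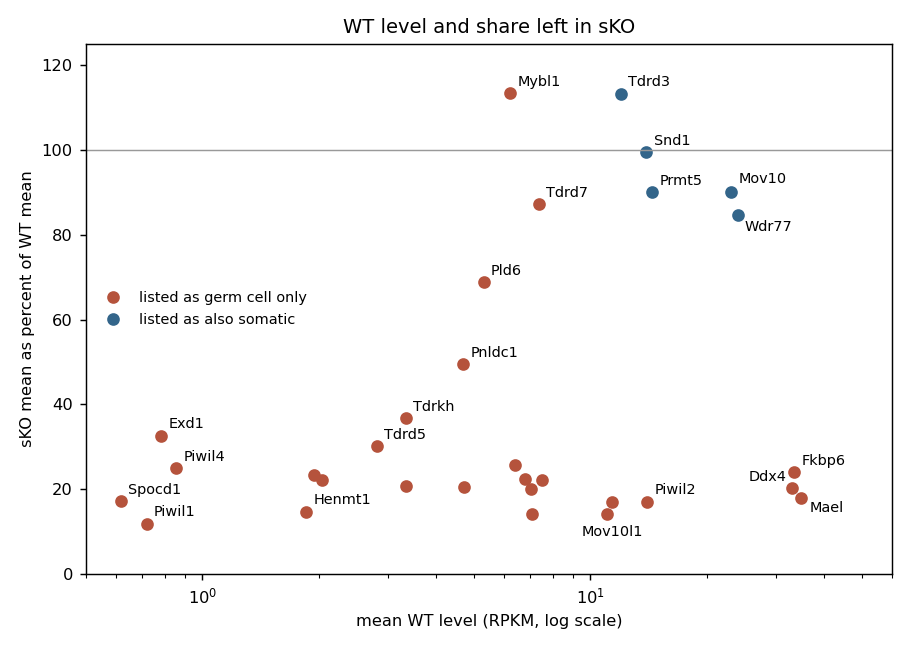
Mean sKO level as a percent of the mean WT level against mean WT RPKM on a log axis, 1 point per tested member. The 21 members called lower lie between 11.9% and 36.8%, with Pnldc1 (49.5%), Pld6 (68.9%), Tdrd7 (87.3%) and Mybl1 (113.4%) above them. The point at 11.9% is Piwil1, which passed the filter on low counts through WT alone.

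The members were then set beside 18 other germ cell genes, among them Dazl, which controls translation in germ cells. Of these genes 16 were lower and 0 higher in sKO, where 2.30% of all genes tested were lower and 0.124% higher. Their median log2 fold change was −2.20, against −2.17 for the tested germ-cell-only members. Members and lists were chosen with earlier results of these data known, so the nearness of these medians is given as a description. With the library subset as a term all 18 were lower (8.65% of all genes), the added genes being Kit (adjusted p = 0.0492) and Nanos3 (0.0443). The summed CPM of the 28 measured germ-cell-only members was 860.2 in WT-1, 611.7 in WT-2 and 238.9, 192.8, 170.9 and 239.2 in sKO-1 to sKO-4. Over the other germ cell genes the sums were 883.3, 641.3, 216.8, 148.9, 148.7 and 220.0, in the same order of libraries. Both sums were higher in WT-1 than WT-2, and higher in sKO-1 and sKO-4 than in sKO-2 and sKO-3. Of the 21 lower members, 12 were highest among the sKO libraries in sKO-4 and 9 in sKO-1, and 15 were lowest in sKO-3. The ratio of members to markers was 0.974 and 0.954 in WT and 1.09 to 1.30 in sKO. Leaving out Mybl1 and Tdrd7, chosen after their values were seen, it was 0.899 and 0.861 in WT and 0.740 to 0.837 in sKO, so the direction of the ratio turns on these genes.

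**Figure D5:**
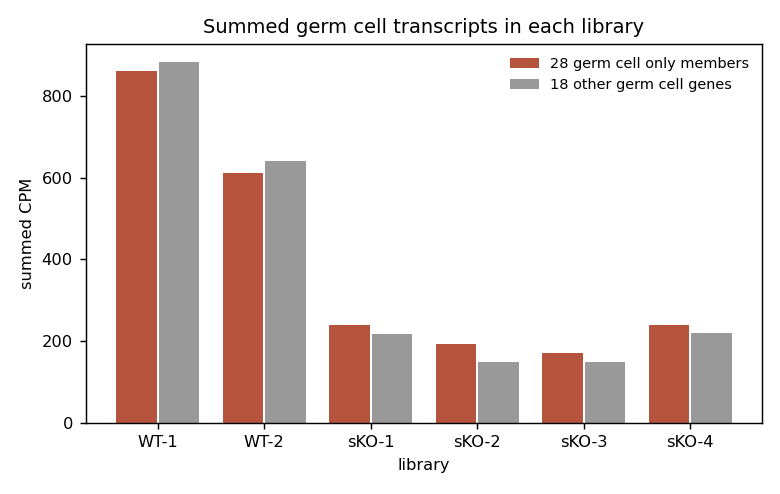
Summed CPM of the 28 measured germ-cell-only members and of 18 other germ cell genes in each library; bars start at 0. Both sums are lowest in sKO-3, at 170.9 and 148.7 CPM, and highest in WT-1, at 860.2 and 883.3 CPM.

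Most other genes of small RNA silencing did not pass the test, by which 2.30% of all genes tested were lower and 0.124% higher. Of 9 tested partners in DNA methylation and silencing, 1 was lower and 0 higher, with a median of −0.12. That was Dnmt3b, a de novo DNA methyltransferase, at 34.4 CPM in WT and 17.7 in sKO (−0.96, SE 0.18, adjusted p = 0.0390). Of 10 other small RNA proteins, including Argonautes and Dicer, 1 was lower and 0 higher, with a median of −0.09. That was Drosha, the nuclease that opens microRNA precursors, at 157.6 CPM in WT and 109.6 in sKO (−0.52, SE 0.10, adjusted p = 0.0422). Of 16 other granule and Tudor proteins, 3 were lower and 0 higher, with a median of −0.23: the testis helicase Ddx25 (−1.74, adjusted p = 0.0193), Dnd1, an RNA-binding protein of germ cells (−1.70, adjusted p = 0.0139), and Adad2, a double-stranded RNA-binding protein of germ cells (−3.14, adjusted p = 0.0348). Dnd1 and Nanos3 of this list are also among the 18 other germ cell genes above, so both are counted in each list. Adad2, with 51 and 24 counts in WT and 1 to 6 in sKO, passed the filter on low counts through WT alone, so its call and the size of its change carry the same limit as those of Piwil1. With the library subset as a term 3 silencing partners, 3 small RNA proteins and 5 granule and Tudor proteins were lower and 0 higher, the added ones being Setdb1, Uhrf1, Ago3, Dicer1, Nanos3 and Lbr (adjusted p 0.00575 to 0.0443). Without WT-1 all 5 calls were lost. Dnd1 passed without each of the other libraries, the adjusted p of Adad2 was at least 0.0577 and that of Drosha at least 0.0502 without any 1 library, Dnmt3b passed only without WT-2 (0.0406), and Ddx25 only without sKO-3 or sKO-4 (0.0198 at the lowest).

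Summed markers of somatic cell types were at 82.95% to 137.1% of their WT means in sKO, against 24.1% for the 18 germ cell genes. The summed CPM of 11 Sertoli cell genes was 5404 and 6509 in WT and 6176 to 7008 in sKO, with 1 higher (Amh, 0.45, adjusted p = 0.0429) and 0 lower. For 5 Leydig cell genes the sums were 464.3 and 674.9 in WT and 498.5 to 870.3 in sKO, and 0 passed. For 4 peritubular myoid genes they were 608.4 and 786.5 in WT and 474.3 to 649.4 in sKO, with Cnn1, a smooth muscle calponin, lower (−1.73, adjusted p = 0.0323). Endothelial genes summed to 198.3 and 223.4 CPM in WT and 210.9 to 275.1 in sKO, macrophage genes to 50.4 and 45.7 and to 40.4 to 48.8, erythroid genes to 376.8 and 380.0 and to 461.1 to 666.6, and epididymis and rete genes to 27.5 and 42.6 and to 34.7 to 47.1, with 0 of these genes past the test. With the library subset as a term Gata4, Inha and Kitl were higher with Amh among Sertoli cell genes and Cldn11 was lower (4 higher and 1 lower), and Myh11 and Tagln were lower with Cnn1 (3 lower). In the same fit Cdh5 of the endothelium (adjusted p = 0.0195) and the globin genes Hbb-bs (0.0215) and Hba-a1 (0.0228) were higher. With that term 8.65% of all genes were lower and 4.97% higher, against 2.30% and 0.124% without it. No listed marker was at 0 in all libraries. The calls of Amh and Cnn1 were lost without any 1 library (adjusted p from 0.0696 and from 0.0538). The part of these cell types in the members' results was not tested.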

How the data were processed

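Polyadenylated RNA of 6 whole-testis samples was sequenced. The authors deposited 1 table of expected counts, many of them not whole. The submitters' processing notes name fastp, STAR, RSEM and the build mm39. Versions, annotation and strand setting: not given in the sources used here. Symbols came from GENCODE M21 (GRCm38; 90.5% of identifiers matched), exon lengths for RPKM also, and promoters from RefSeq (GRCm38.p6). The member Tdrd9 was not analysed here. Groups follow the sample titles, which give 2 WT and 4 sKO, where the design text speaks of 3 each. The members and lists were chosen with earlier results of these data known.

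Expected counts were rounded. filterByExpr (minimum count 10) left 17707 genes, scaled by TMM, and edgeR 4.0.16 (R 4.3.3; glmQLFit and glmQLFTest, two-sided, no covariate, Benjamini-Hochberg over all genes, threshold 0.05) compared sKO with WT. SE is the log2 fold change divided by the root of F. Totals near 18 M make counting error small for all but the lowest members. Same-group libraries differed by 3.92 to 23.7 chi-square per gene, where sampling noise gives about 1, so none were merged. All members were accounted for, and from each other pathway list up to 4 genes with the smallest adjusted p under 0.05 were named. Alternatives were RLE, other count filters, DESeq2 1.42.0, limma-voom (limma 3.58.1), each library left out and the replicate block. The subset fits, and libraries numbered 1 and 2 without the block, were added after seeing the data. The edgeR step was tested on simulated counts. Without strand, reads of overlapping genes cannot be told apart: Tdrkh shares 36.7% and Henmt1 14.7% of their exon bases with opposite-strand genes at under 1 CPM, and Wdr77 6.96% with an abundant one.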

Additional observations from a re-analysis of the deposited data

How the results depend on the processing

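The 21 members called lower kept their direction in all 17 fits, with log2 fold changes of −1.19 or lower in each. They were selected as lower by the main edgeR fit, itself among the 17, and the other fits reuse the same libraries. The kept direction is therefore no independent support. Leaving out 1 library in turn gave 0 (without WT-1) to 18 members lower, with 13 without sKO-2; over all genes it gave 1 to 225 lower, against 408, and 2 to 7 higher, against 22. DESeq2 called 646 genes lower and 80 higher, the library subset as a term 1531 and 880, and subset 1 alone 946 and 282. Subset 2 alone called 267 genes higher, and libraries numbered 1 and 2 with no block 187 lower and 9 higher. Same-numbered libraries are not said to share an animal or day: their deviations from the group means correlated at 0.42 for number 1 and −0.44 for number 2. With the replicate block on libraries numbered 1 and 2, 268 genes and 19 members were lower, against 187 and 15 in the same libraries with no block. Mov10 ran from −0.48 to 0.23 over the fits without 1 library, and turned to 0.26 with the replicate block and 0.22 in those libraries with no block. Snd1 ran from −0.17 to 0.15 over the fits without 1 library, and turned to 0.002 with no count filter, 0.003 in DESeq2 and 0.075 within subset 2. The cause of these shifts was not tested. Depth limits Piwil1, Spocd1, Tdrd6 and Gtsf1l, with under 10 counts in each sKO library. It also limits Henmt1, with 22, 9, 6 and 16 counts in sKO-1 to sKO-4.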
